A study of Mus musculus with 2 samples.

Results

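The genes described are 10 components of the Slit-Robo and netrin signalling systems, namely the ligands *Slit1*, *Slit2* and *Slit3*, the Slit receptors *Robo1* and *Robo2*, and the netrin receptors *Dcc*, *Neo1*, *Unc5a*, *Unc5c* and *Unc5d*. They were taken by symbol from the 32285 genes of the count matrices, and each symbol matched 1 gene. The matrices came from single cell RNA sequencing (scRNA-seq) of the dorsal telencephalon of mouse embryos at E14.5, with 1 droplet-based 3' library for each of 2 samples, called replicates 1 and 3 after their labels. Both samples had the genotype WT in the labels. They were the controls of an Eomes and Mllt3 line, and which alleles these controls carry is not given in the sources used here. The labels name brain hemispheres as tissue, and neither labels nor methods say whether a sample was 1 embryo or a pool. No treatment separated the samples, so cell classes were compared, with 1 sum of counts per class and library. The main test did not pair the sums that share a library. Each p-value rests on the spread between the 2 samples only, estimated jointly over classes and genes.

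Slit proteins are secreted ligands that repel axons and migrating neurons through Robo receptors. Netrins act through DCC and neogenin, which can mediate attraction, and through UNC5 receptors, which mediate repulsion alone or together with DCC. In the embryonic cortex, radial glial cells (RGC) line the ventricle, intermediate progenitor cells (IPC) divide in the subventricular zone, newborn projection neurons (PN) migrate through the intermediate zone and mature PN settle in the cortical plate, while interneurons born in the medial ganglionic eminence (MGE) enter the cortex by tangential migration.

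Each captured RNA molecule is tagged by a unique molecular identifier (UMI). Over all barcodes before any filter, the medians were 9802 and 9754 UMIs per barcode, and 23 barcodes occurred in both libraries. After filters on depth and mitochondrial UMIs and removal of predicted doublets, 12003 cells remained, with 5149 in replicate 1 and 6854 in replicate 3. The cells formed 26 clusters, which were formed without the 10 genes and named after marker genes that include none of them. In replicates 1 and 3, RGC-like cells numbered 688 and 1566, IPC-like cells 639 and 1132, newborn PN-like cells 1535 and 1836, mature PN-like cells 1197 and 1360, and MGE interneuron-like cells 332 and 211. The 8 MGE interneuron markers summed to 27059 and 25739 counts per 1000000 UMIs (CPM) in the MGE interneuron-like class, to 1691 CPM and 1540.0 CPM in RGC-like, 1367 CPM and 1356 CPM in IPC-like and 37.7 to 74.4 CPM in mature PN-like cells. The 14 mature PN markers summed to 9274 CPM and 8597 CPM in mature PN-like cells, and to 4371 CPM and 4661 CPM in newborn PN-like cells. Newborn PN-like cluster 8 had 10 of the mature PN markers beside 6 of 7 newborn PN markers past the marker threshold, and mature PN-like cluster 5 had all 7 newborn PN markers beside 12 of 14 mature PN markers. Erythroid markers were present throughout and summed to 112 CPM and 402 CPM in the RGC-like class of replicates 1 and 3, and to 294 CPM and 1100 CPM in the MGE interneuron-like class. Levels below are CPM of the UMIs summed over a class in 1 replicate, and they were compared within a gene only. Highest and lowest refer to these 5 classes, and other clusters are named where they bear on a gene.

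*Robo1* and *Robo2* are neighbours on chromosome 16 and had different patterns in PN-like cells, so the 250 bases upstream of a start site of each are shown. Both come from RefSeq on GRCm38.p6, which is the same assembly as the mm10 named for these libraries. The *Robo1* window is chr16:72662899-72663148 on the plus strand and lies within the annotated gene, at chr16:72027518-73047491. The *Robo2* window is chr16:75447294-75447543 on the minus strand, at the 5′ end of the annotated gene, which spans chr16:73891976-75447443. Capitals mark the E-box motif CANNTG, a pattern that reads the same on both strands. Proneural factors of the Neurog and Neurod families bind some of the sequences with this pattern, and binding in these windows was not tested.
Robo1: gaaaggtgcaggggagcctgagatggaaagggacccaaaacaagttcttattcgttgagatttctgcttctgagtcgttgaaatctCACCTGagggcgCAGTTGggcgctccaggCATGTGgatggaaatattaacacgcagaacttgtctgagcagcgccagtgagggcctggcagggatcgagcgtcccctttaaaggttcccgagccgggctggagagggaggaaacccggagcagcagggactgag
Robo2: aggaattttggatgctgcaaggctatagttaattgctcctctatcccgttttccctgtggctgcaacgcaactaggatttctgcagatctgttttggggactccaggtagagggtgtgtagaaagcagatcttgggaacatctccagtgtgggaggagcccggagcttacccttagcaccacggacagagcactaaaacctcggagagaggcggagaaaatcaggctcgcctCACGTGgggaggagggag
The *Robo1* window held 3 E-boxes and 11 CpG dinucleotides. The *Robo2* window held 1 E-box and 8 CpG dinucleotides, and each of the other *Robo2* starts in the table, at chr16:75092771-75093020 and chr16:74411826-74412075, also held 1 E-box. Of 32851 upstream windows of this length in the table, 66.2% held at least 1 E-box, with a median of 1 E-box and 6 CpG dinucleotides.

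The 10 genes were tested between successive classes of the neurogenic series and between MGE interneuron-like and mature PN-like cells, and all 10 passed the filter on low counts. From RGC-like to IPC-like cells 6 of 10 genes passed the threshold of an adjusted p under 0.05, while 39% of all 16171 genes tested did. Of the 6, 5 were higher in IPC-like cells, against 19.4% of all genes, and 1 was lower, against 19.6%. The median log2 fold change of the 10 genes was 1.33, beside -0.0026 over all genes. From IPC-like to newborn PN-like cells 6 of 10 passed (38.8% of all genes), with 5 higher (20.5%) and 1 lower (18.3%), and the median was 0.89 beside 0.018 over all genes. From newborn to mature PN-like cells 6 of 10 passed (21.1% of all genes), with 3 higher (12.1%) and 3 lower (8.99%), and the median was 0.54 beside 0.014.

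In MGE interneuron-like against mature PN-like cells 7 of 10 passed (35.8% of all genes), with 1 higher (12.9%) and 6 lower (22.9%). The median log2 fold change was -2.04, beside -0.16 over all genes. The scaling between libraries weighed on this comparison. With library sizes alone the median over all genes was 0.061 and 3195 genes were higher and 2536 lower, in place of 2087 and 3706, and with DESeq2 the split was 2489 and 2873. The direction of the 7 genes that passed was the same under each of these scalings. For newborn PN-like against IPC-like cells, library sizes alone turned a split of 3307 higher and 2966 lower genes into 2683 and 3902, with a median over all genes of -0.10.

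**Figure D1:**
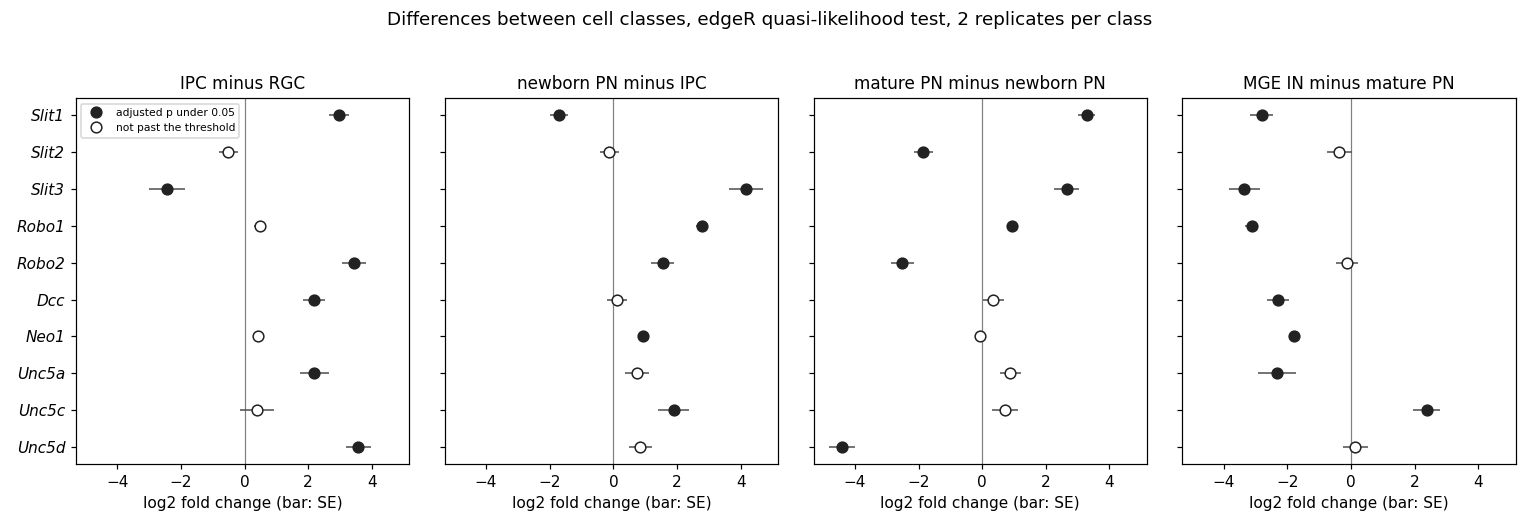
Log2 fold changes (x axis, bar: SE) of the 10 genes (y axis) in the 4 comparisons between cell classes, from edgeR with 2 replicates per class; PN, projection neuron; IN, interneuron. Filled points passed an adjusted p under 0.05 and open points did not. *Robo2* and *Unc5d* lie right of 0 in the first 2 panels and left of it in the third, and *Unc5c* is the only filled point right of 0 in the last panel.

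Among the ligands, *Slit1* (ENSMUSG00000025020) was highest, of the 5 classes compared, in mature PN-like cells. Its level was 6.59 CPM in replicate 1 and 3.94 CPM in replicate 3 of the RGC-like class, and 39.3 CPM and 37.0 CPM in the IPC-like class. It was 13.4 CPM and 7.76 CPM in newborn PN-like cells, 80.5 CPM and 119 CPM in mature PN-like cells, and 17.8 CPM and 14.7 CPM in MGE interneuron-like cells. No neighbours in the order of these 5 levels overlapped between replicates. *Slit1* rose from RGC-like to IPC-like cells by 2.97 ± 0.30 on the log2 scale (SE, n = 2, adjusted p = 6.83e-05), fell by 1.71 ± 0.27 in newborn PN-like cells (adjusted p = 0.000843) and rose by 3.29 ± 0.27 in mature PN-like cells (adjusted p = 5.47e-05). Within the last of these steps the replicates gave 2.65 and 3.96.

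The *Slit1* level of the IPC-like class was not shared by its clusters. In cluster 12 it was 87.5 CPM and 90.3 CPM, while in clusters 1 and 15 it ranged from 14.5 to 33.1 CPM. Cluster 12 is the IPC-like cluster in which all 9 RGC markers passed the marker threshold beside all 7 IPC markers. Without cluster 12 the step from RGC-like to IPC-like cells was 1.89 and passed, whereas the difference of newborn PN-like from IPC-like cells was -0.65 and no longer passed. Without cluster 8, a newborn PN-like cluster that shared mature PN markers and had 41.4 CPM and 31.4 CPM, that difference was -2.88 and the rise to mature PN-like cells was 4.46. In MGE interneuron-like cells *Slit1* was lower than in mature PN-like cells, with a log2 fold change of -2.81 ± 0.36 (adjusted p = 0.000291).

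*Slit2* (ENSMUSG00000031558) was highest, of the 5 classes compared, in RGC-like cells, and the hem or choroid-like cells outside these classes had 794 CPM and 1700.2 CPM. The level was 221 CPM and 362 CPM in RGC-like, 155 CPM and 229 CPM in IPC-like, and 199 CPM and 122 CPM in newborn PN-like cells. These 3 ranges overlapped, and neither step between them passed the threshold (log2 fold changes of -0.51 ± 0.30 and -0.14 ± 0.30, adjusted p = 0.206 and 0.753). Over the settings tested, the first of these steps ranged from -0.69 to 0.098 and did pass in an alternative. For the second of these steps the replicates went opposite ways, with 0.51 and -0.80. The level was 38.1 CPM and 47.2 CPM in mature PN-like cells, which was a fall by 1.84 ± 0.31 on the log2 scale (adjusted p = 0.00268). In MGE interneuron-like cells it was 45.3 CPM and 30.4 CPM, a range that overlapped that of mature PN-like cells (log2 fold change of -0.36 ± 0.39, adjusted p = 0.509).

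Clusters differed within both progenitors and neurons. RGC-like cluster 9, led by *Ltbp1* and *Rmst*, had 555 CPM and 623 CPM of *Slit2*, and RGC-like cluster 10, led by *Mt3* and *Fabp7*, had 95.9 CPM and 121 CPM. Among mature PN-like cells, cluster 5 had 103 CPM and 94.8 CPM, and the 3 other clusters ranged from 10.4 to 24.9 CPM. Without cluster 5 the difference of mature from newborn PN-like cells was -3.22. By replicate, with cluster 5, it was -2.30 and -1.32. Reads of *Slit2* cannot be told apart with certainty from those of *Gm20475*, which overlaps it on the same strand.

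*Slit3* (ENSMUSG00000056427) was lowest in IPC-like cells and highest in mature PN-like cells among the 5 classes compared, while hem or choroid-like cells had 312 CPM and 356 CPM. In RGC-like cells it was 20.1 CPM and 9.97 CPM, in IPC-like cells 2.13 CPM and 2.53 CPM, and in newborn PN-like cells 59.8 CPM and 24.0 CPM. It was 240.4 CPM and 264 CPM in mature PN-like cells and 24.6 CPM and 35.3 CPM in MGE interneuron-like cells. Apart from newborn PN-like and MGE interneuron-like cells, whose ranges overlapped, neighbours in this order were separated. It fell from RGC-like to IPC-like cells by 2.43 ± 0.56 on the log2 scale (adjusted p = 0.00713), rose by 4.17 ± 0.53 in newborn PN-like cells (adjusted p = 0.000185) and by 2.65 ± 0.38 in mature PN-like cells (adjusted p = 0.00118).

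Single clusters carried much of the *Slit3* fall to IPC-like cells and of the rise to mature PN-like cells. Cluster 5 of the mature PN-like class, in which *Slit3* was the leading gene by fold and all 7 newborn PN markers passed the marker threshold, had 761 CPM and 633 CPM, and the 3 other clusters ranged from 23.6 to 76.4 CPM. Without cluster 5 the rise to mature PN-like cells was 0.13 and did not pass, and the difference of MGE interneuron-like from mature PN-like cells was -0.78 in place of -3.35 ± 0.48 (adjusted p = 0.00059) and did not pass. Cluster 9 of the RGC-like class had 118 CPM in replicate 1 and 18.6 CPM in replicate 3, while the other RGC-like clusters ranged from 0.861 to 8.26 CPM. Without cluster 9 the difference of IPC-like from RGC-like cells was -0.95 and did not pass. The direction was the opposite, with 1.44, under a stricter cell filter, where it did not pass. It also did not pass at a clustering resolution of 2.0 or with predicted doublets kept. Without replicate 1 this difference was -1.81, and without replicate 3 it was -3.05. Without newborn PN-like cluster 8, led by *Tafa1*, *Tafa2* and *Tfap2d*, the rise from IPC-like cells was 2.04 and passed, and the rise to mature PN-like cells was 4.77. By replicate alone, these rises were 4.84 and 3.28 for the first and 2.08 and 3.49 for the second, in replicates 1 and 3. *Lncucc1* overlaps *Slit3* on the same strand, so reads of the 2 genes cannot be told apart with certainty.

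**Figure D2:**
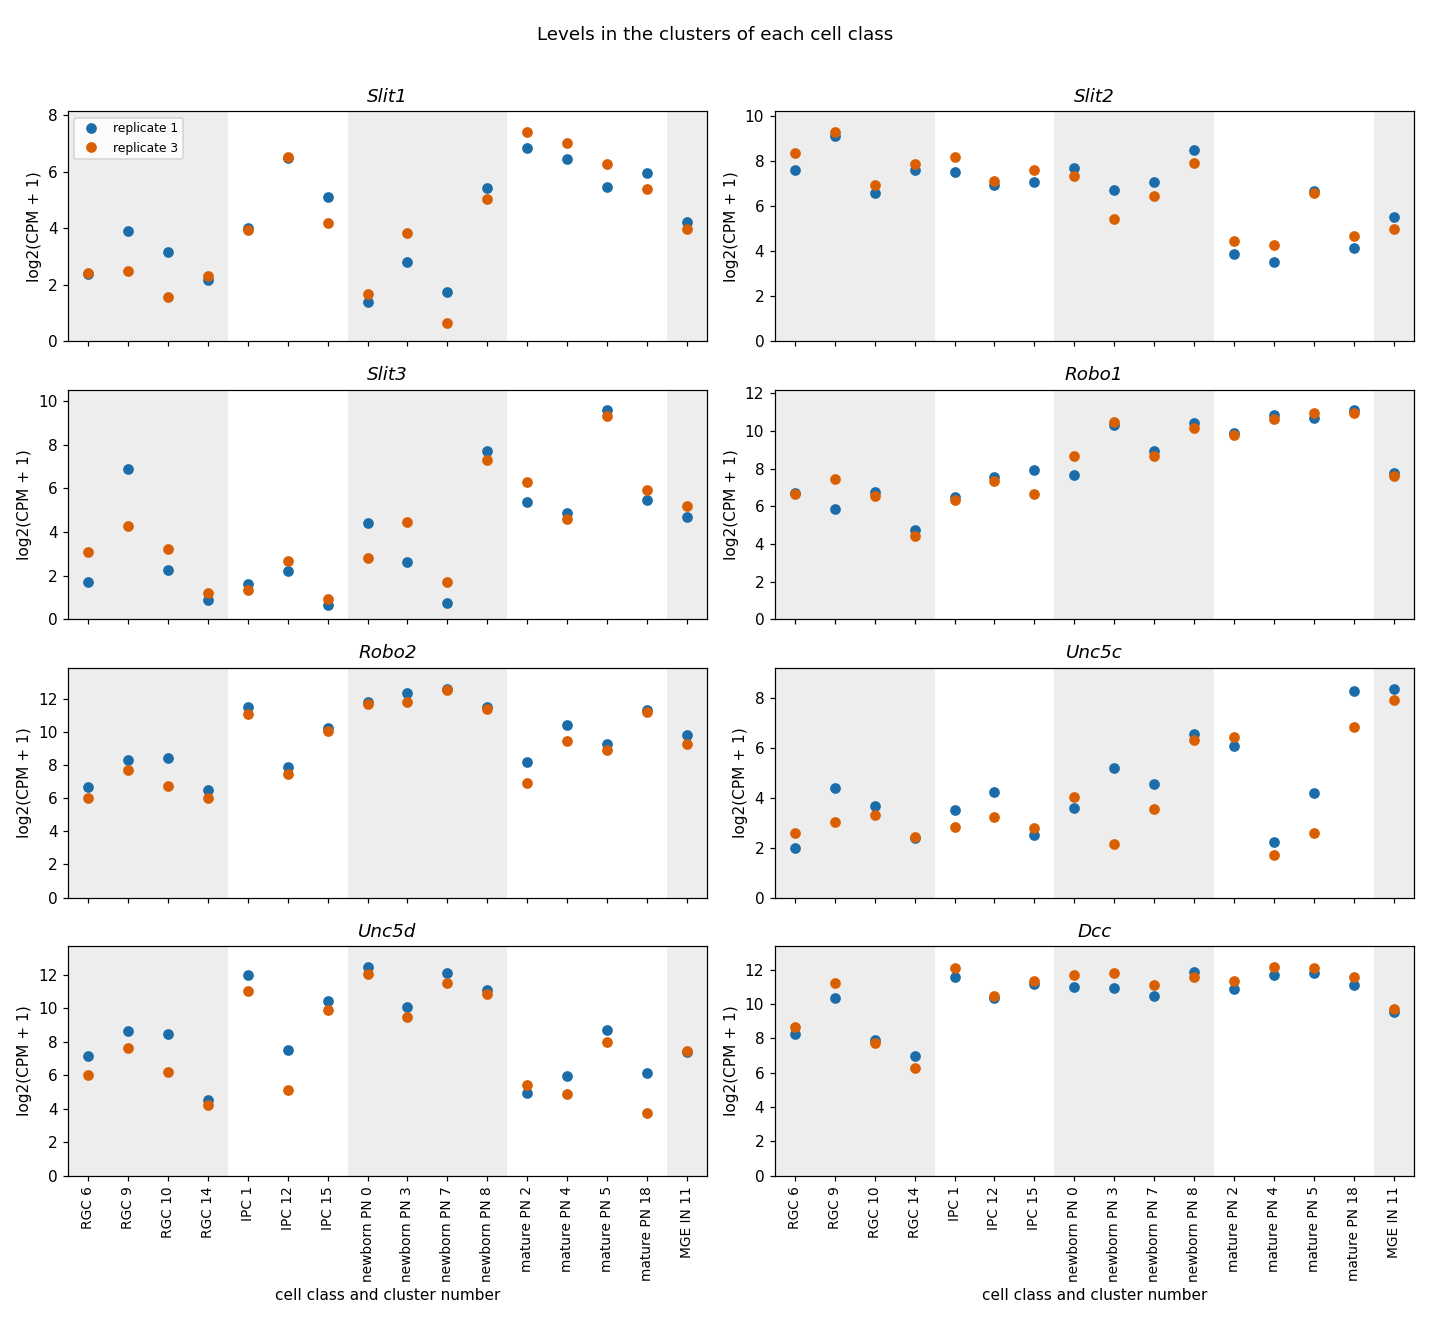
Levels as log2(CPM + 1) (y axis) of 8 genes in each cluster of the 5 cell classes (x axis, class and cluster number), with 1 point per replicate and alternating shading by class; PN, projection neuron; IN, interneuron. *Slit3* stands highest in mature PN 5, *Slit1* in IPC 12 stands above the other IPC clusters, and *Unc5c* in mature PN 18 and MGE IN 11 stands above the other clusters drawn.

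The Robo receptors were both low in RGC-like cells and differed in where they peaked. *Robo1* (ENSMUSG00000022883) was 87.7 CPM and 111 CPM in RGC-like and 153 CPM and 108 CPM in IPC-like cells, ranges that overlapped. It was 888 CPM and 747 CPM in newborn PN-like cells and 1515 CPM and 1507 CPM in mature PN-like cells. The MGE interneuron-like class had 217 CPM and 191 CPM, between the IPC-like and newborn PN-like levels and apart from both. *Robo1* rose from IPC-like to newborn PN-like cells 6.90-fold (log2 fold change of 2.79 ± 0.19, adjusted p = 3.75e-06) and again to mature PN-like cells 1.93-fold (0.95 ± 0.18, adjusted p = 0.00449). Relative to mature PN-like cells, MGE interneuron-like cells had 8.69-fold less (-3.12 ± 0.20, adjusted p = 3.87e-06). Outside the classes compared, the unnamed cluster 13, with *Gad1* and *Gad2* among its leading genes, had 1507 CPM and 881 CPM of *Robo1*. The low level of MGE interneuron-like cells was thus not shared by that cluster, which held 442 and 28 cells. Meningeal-like cells had 1544 CPM and 1021 CPM. The first step, from RGC-like to IPC-like cells, was 0.47 ± 0.18 (adjusted p = 0.0631), and with the replicate as a block it was 0.45 and passed. Among newborn PN-like clusters *Robo1* ranged from 198 CPM in cluster 0 of replicate 1 to 1416 CPM in cluster 3 of replicate 3.

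*Robo2* (ENSMUSG00000052516) peaked 1 stage earlier. It was 199 CPM and 109 CPM in RGC-like cells, 1747 CPM and 1369 CPM in IPC-like cells and 4463 CPM and 3871 CPM in newborn PN-like cells. In mature PN-like cells it was 924 CPM and 470.1 CPM, which overlapped the 882 CPM and 622 CPM of MGE interneuron-like cells. All other neighbours in this order were separated. *Robo2* rose 10.8-fold from RGC-like to IPC-like cells (log2 fold change of 3.43 ± 0.38, adjusted p = 0.000115) and 2.93-fold to newborn PN-like cells (1.55 ± 0.35, adjusted p = 0.00662). It then fell by 2.51 ± 0.37 on the log2 scale to mature PN-like cells (adjusted p = 0.00121), a step in which *Robo1* rose. The size of these *Robo2* steps depended on the setting, while the threshold was passed in each setting tested. Over the settings the log2 fold change ranged from -2.78 to -1.19 for the fall and from 1.44 to 3.87 for the rise to IPC-like cells. MGE interneuron-like and mature PN-like cells did not pass the threshold (-0.13 ± 0.35, adjusted p = 0.812), and with library sizes alone the sign was the opposite, with 0.11. The unnamed cluster 13, led by *Adarb2*, had 2694 CPM and 2365 CPM of *Robo2*.

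The *Robo2* level of IPC-like cells differed between clusters in the opposite sense to that of *Slit1*. It was 2867 CPM and 2144 CPM in cluster 1 and 233 CPM and 176 CPM in cluster 12. In mature PN-like cells it ranged from 285 CPM and 121 CPM in cluster 2, led by *Hs3st4*, to 2562 CPM and 2322 CPM in cluster 18, led by *Syt4*. The other mature PN-like clusters lay between these, with 1383 CPM and 709.6 CPM in cluster 4 and 625 CPM and 484 CPM in cluster 5.

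**Figure D3:**
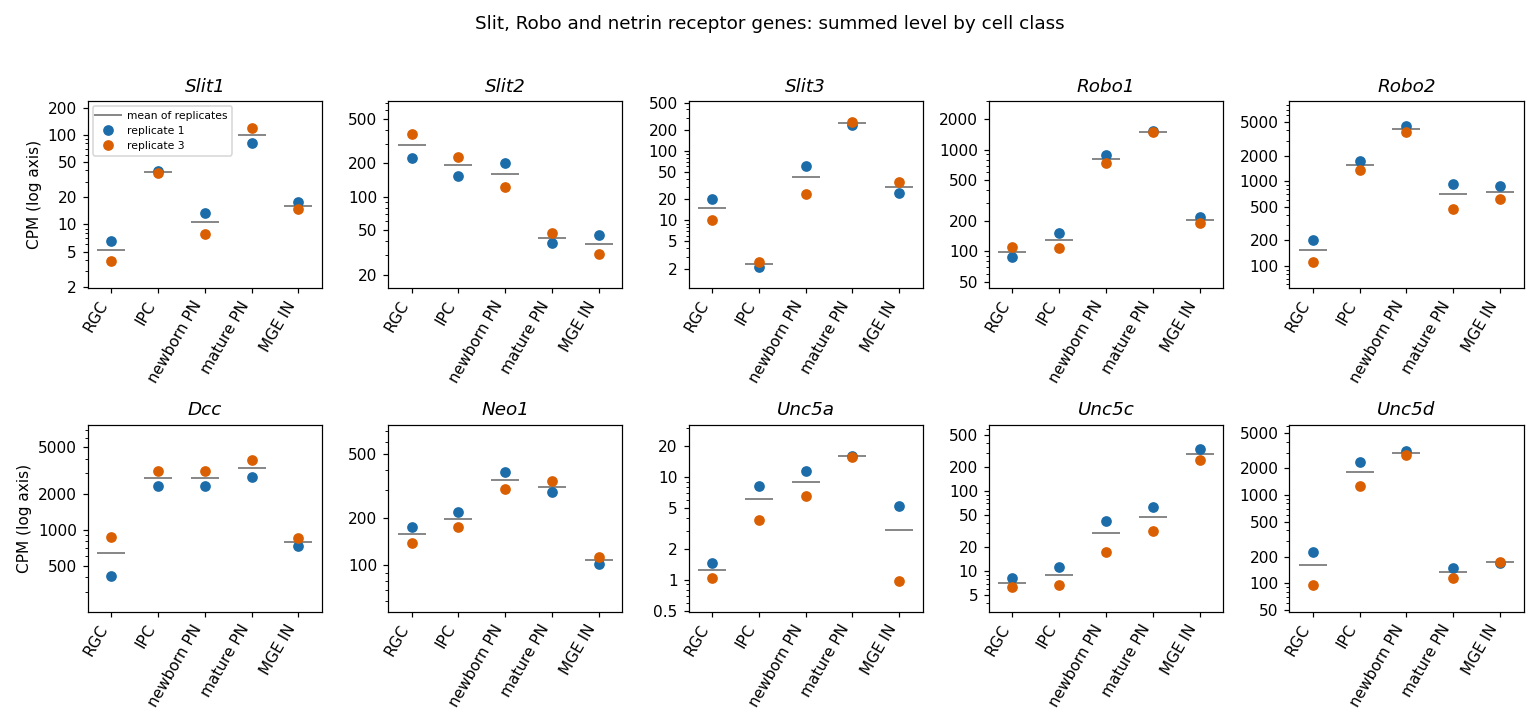
Levels in CPM (y axis, log scale) of the 10 genes in the 5 cell classes (x axis), with 1 point for each of the 2 replicates and a dash at their mean; PN, projection neuron; IN, interneuron. *Robo2* and *Unc5d* are highest in newborn PN-like cells, *Robo1*, *Slit1* and *Slit3* in mature PN-like cells, *Slit2* in RGC-like cells and *Unc5c* in MGE interneuron-like cells.

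Of the netrin receptors, *Dcc* (ENSMUSG00000060534) was lower in RGC-like cells than in the IPC-like and PN-like classes. Its level was 409 CPM and 879 CPM in the RGC-like class, against 2361 CPM and 3154 CPM in the IPC-like class. It was 2339.5 CPM and 3123 CPM in newborn and 2785 CPM and 3876 CPM in mature PN-like cells, and the 3 ranges of IPC-like, newborn and mature PN-like cells overlapped, although the mature level was above the newborn level in each replicate. Among IPC-like clusters it was 1292 CPM and 1393 CPM in cluster 12 and 2984 CPM and 4348 CPM in cluster 1. *Dcc* rose 4.55-fold from RGC-like to IPC-like cells (log2 fold change of 2.18 ± 0.34, adjusted p = 0.000826). The next steps were 0.11 ± 0.33 (adjusted p = 0.814) and 0.35 ± 0.33 (adjusted p = 0.517). In MGE interneuron-like cells *Dcc* was 738 CPM and 849 CPM, within the range of RGC-like cells and 4.95-fold lower than in mature PN-like cells (-2.31 ± 0.34, adjusted p = 0.000722). Among RGC-like clusters, cluster 9 had 1286 CPM and 2398 CPM and the others ranged from 76.0 to 408 CPM. Cluster 9 made up 119 of 688 RGC-like cells in replicate 1 and 489 of 1566 in replicate 3, and without it the rise to IPC-like cells was 3.38.

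*Neo1* (ENSMUSG00000032340) encodes neogenin, which binds netrins and repulsive guidance molecules, and it varied least in fold among the genes described. It was 175 CPM and 139 CPM in RGC-like, 218 CPM and 175 CPM in IPC-like, 385 CPM and 301 CPM in newborn PN-like and 289 CPM and 338 CPM in mature PN-like cells. In MGE interneuron-like cells it was 103 CPM and 114 CPM, below the 4 other classes compared. *Neo1* rose 1.91-fold from IPC-like to newborn PN-like cells (log2 fold change of 0.93 ± 0.16, adjusted p = 0.00130). MGE interneuron-like cells had 3.43-fold less of it than mature PN-like cells (-1.78 ± 0.18, adjusted p = 6.84e-05). The step from RGC-like to IPC-like cells was 0.41 ± 0.16 (adjusted p = 0.0669) and with the replicate as a block it was 0.415 and passed. The step from newborn to mature PN-like cells was -0.067 ± 0.16 (adjusted p = 0.820) with opposite signs in the replicates.

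The 3 UNC5 receptors were each highest in another of the 5 classes. *Unc5d* (ENSMUSG00000063626) encodes a receptor that also binds the FLRT2 protein and that marks migrating multipolar neurons. It was 224 CPM and 96.2 CPM in RGC-like, 2330.0 CPM and 1265 CPM in IPC-like and 3107 CPM and 2786 CPM in newborn PN-like cells. It was 151 CPM and 115 CPM in mature PN-like and 169 CPM and 177 CPM in MGE interneuron-like cells, and both ranges lay within that of RGC-like cells. *Unc5d* rose 11.9-fold from RGC-like to IPC-like cells (log2 fold change of 3.58 ± 0.40, adjusted p = 0.000118). The next step was 0.85 ± 0.36 (adjusted p = 0.0932), and with the replicate as a block it was 0.91 and passed. *Unc5d* then fell by 4.41 ± 0.42 on the log2 scale, a 21.2-fold difference, to mature PN-like cells (adjusted p = 0.000106), which was the largest fold of the 10 genes in the comparisons between classes.

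Within newborn PN-like cells *Unc5d* was 5788 CPM and 4227 CPM in cluster 0, of which it was the leading gene by fold, and 1100.3 CPM and 712 CPM in cluster 3. In IPC-like cluster 12 it was 183 CPM and 33.1 CPM, beside 4018 CPM and 2065 CPM in cluster 1. In mature PN-like cells cluster 5 had 413 CPM and 254 CPM, and the other clusters ranged from 12.4 to 70.05 CPM. Without cluster 5 the difference of mature from newborn PN-like cells was -6.08, and *Unc5d* was then higher in MGE interneuron-like than in mature PN-like cells by 1.86 and passed, against 0.14 ± 0.38 (adjusted p = 0.816) with that cluster.

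*Unc5c* (ENSMUSG00000059921) was highest in MGE interneuron-like cells, with 337 CPM and 243 CPM. It was 8.15 CPM and 6.28 CPM in RGC-like, 11.2 CPM and 6.81 CPM in IPC-like, 42.9 CPM and 17.6 CPM in newborn PN-like and 63.2 CPM and 32.2 CPM in mature PN-like cells. The interneuron level lay above those of the 4 other classes compared, while cluster 13, an unnamed cluster led by *Adarb2* with 442 and 28 cells, had 245 CPM and 241 CPM. It was 5.18-fold higher than in mature PN-like cells (log2 fold change of 2.37 ± 0.43, adjusted p = 0.00219). Without mature PN-like cluster 18, which had 318 CPM and 115 CPM, this difference was 2.98. *Unc5c* rose 3.72-fold from IPC-like to newborn PN-like cells (1.89 ± 0.49, adjusted p = 0.0119), but without newborn PN-like cluster 8, with 94.6 CPM and 80.1 CPM, the step was 1.15 and did not pass. It also failed to pass at a clustering resolution of 2.0 (0.96), with cells thinned to 3000 UMIs (1.52) and with a stricter cell filter (0.77). The step to mature PN-like cells was 0.73 ± 0.41 (adjusted p = 0.259), and with the replicate as a block it was 0.75 and passed.

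*Unc5a* (ENSMUSG00000025876) was the gene with the fewest UMIs. It was 1.46 CPM and 1.05 CPM in RGC-like, 8.23 CPM and 3.84 CPM in IPC-like, 11.4 CPM and 6.49 CPM in newborn PN-like and 16.1 CPM and 15.8 CPM in mature PN-like cells. Cajal-Retzius-like cells, outside the 5 classes compared, had more, with 26.1 CPM and 32.0 CPM from 17 and 35 UMIs. In MGE interneuron-like cells 9 UMIs in replicate 1 and 1 UMI in replicate 3 gave 5.16 CPM and 0.981 CPM. *Unc5a* rose from RGC-like to IPC-like cells (log2 fold change of 2.19 ± 0.45, adjusted p = 0.00421). The later steps were 0.73 ± 0.37 and 0.89 ± 0.33 (adjusted p = 0.150 and 0.0918), and with the replicate as a block they were 0.72 and 0.94 and passed. In MGE interneuron-like cells it lay below mature PN-like cells (-2.34 ± 0.60, adjusted p = 0.0129), with -1.85 in replicate 1 and -4.00 in replicate 3.

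The share of cells with at least 1 UMI of a gene was taken after each cell was thinned to 3000 UMIs, since depth differed between classes. Erythroid-like cluster 19, whose cells should lack these genes, served as the background, as the erythroid-like cluster with the most erythroid markers past the threshold (all 7). It held 56 and 93 cells. After thinning they numbered 47 and 59, with medians of 6389 and 7330.0 UMIs before it, while the RGC-like class had a median of 13378.5 UMIs in replicate 1. Thinning left out 20 and 38 RGC-like, 4 and 43 IPC-like, 39 and 70 newborn PN-like, 29 and 44 mature PN-like, 68 and 61 MGE interneuron-like and 9 and 34 erythroid-like cells. Of the 50 pairs of gene and class, 31 lay above the background in both replicates by their 95% Wilson intervals. The rule was applied to the genes described only. Whether this count is high or low beside that of all genes was therefore not tested. *Unc5a* did not in 5 of 5 classes, *Slit1* and *Slit3* did not in 4, with mature PN-like cells as the exception, and *Unc5c* did not in 4, with MGE interneuron-like cells as the exception. *Slit2* did not in mature PN-like and MGE interneuron-like cells. Both classes of the *Slit1*, *Slit3* and *Unc5a* steps from RGC-like to IPC-like cells were thus not above the background by this measure. The other erythroid-like cluster, 22, was led by *Hbb-y* and also by keratin genes, and had 224 CPM and 251 CPM of *Robo1* and 234 CPM and 70.2 CPM of *Robo2*. With both erythroid-like clusters as the background, a choice made after seeing the data, 27 of 50 pairs lay above it. *Robo1* in both progenitor classes and *Unc5d* in RGC-like, mature PN-like and MGE interneuron-like cells no longer did, and *Slit1* in IPC-like cells now did.

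*Robo2* was detected in 90.2% and 92.1% of newborn PN-like cells, compared with 93.4% and 95.4% without thinning, and in 6.38% and 3.39% of the cells of cluster 19 (10.7% and 5.38% without thinning). It was detected in 41.9% and 29.3% of mature PN-like cells (54.3% and 40.3% without thinning). *Robo1* was detected in 61.8% and 51.0% of newborn PN-like cells and in 76.0% and 78.6% of mature PN-like cells, with 73.8% and 61.8%, and 87.6% and 90.5%, without thinning. Its background was 2.13% and 1.69% in cluster 19, and 9.59% and 11.6% in both erythroid-like clusters. The shares of the Robo receptors thus had the order of their CPM levels in PN-like cells.

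*Unc5d* was detected in 77.3% and 81.7% of newborn PN-like cells and in 14.04% and 13.7% of mature PN-like cells, over a background of 2.13% and 0% in cluster 19. With both erythroid-like clusters that background was 1.37% and 6.98%. Without thinning the shares in newborn PN-like cells, mature PN-like cells and cluster 19 were 84.6% and 88.6%, 25.7% and 23.8%, and 3.57% and 2.15%. *Unc5c* was detected in 31.8% and 31.3% of MGE interneuron-like cells and in 6.25% and 3.42% of mature PN-like cells (37.3% and 34.1%, and 10.6% and 5.81%, without thinning). The interneuron shares lay above the *Unc5c* background of 2.13% and 0%, while the mature PN-like shares did not lie above it in both replicates by these intervals. *Dcc* was detected in 33.7% and 39.9% of RGC-like and in 82.8% and 86.2% of IPC-like cells (52.3% and 60.9%, and 88.0% and 91.8%, without thinning). The ligands were detected in these shares of the class where each was highest among the 5 compared, with *Slit2* in 33.1% and 45.0% of RGC-like, *Slit1* in 19.3% and 29.0% of mature PN-like and *Slit3* in 15.9% and 21.7% of mature PN-like cells. Without thinning they were 55.1% and 67.3%, 49.5% and 58.9%, and 24.1% and 31.0%. None of the 3 ligands was detected in the 47 and 59 cells of cluster 19, which at a limit of 3 counts allows shares of up to 6.38% and 5.08% (upper 95% Wilson bounds of 7.56% and 6.11%). These intervals and limits cover counting error only.

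**Figure D4:**
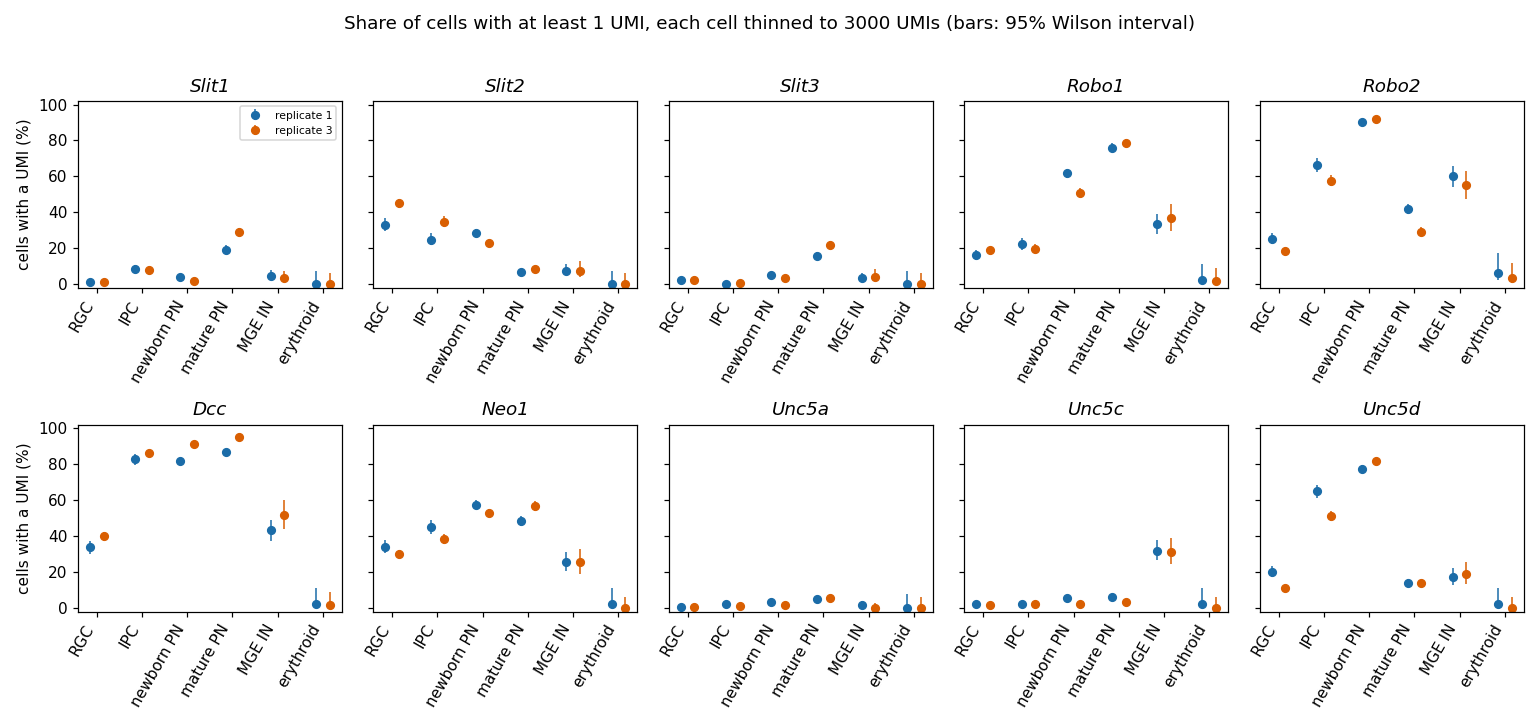
Percentage of cells with at least 1 UMI (y axis) of each of the 10 genes after thinning to 3000 UMIs per cell, in 6 cell classes (x axis) with 1 point per replicate and bars for the 95% Wilson interval; PN, projection neuron; IN, interneuron. Erythroid cluster 19 is the background, and *Robo2* in newborn PN-like cells reaches 90.2% and 92.1%.

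The shares of cells with UMIs of both receptors of a pair are given beside the product of the 2 single shares, which is what independent detection in a class would give, and the difference was not tested. *Robo1* and *Robo2* were detected together in 56.0% and 48.0% of newborn PN-like cells of replicates 1 and 3 (product 55.7% and 47.0%) and in 35.5% and 25.4% of mature PN-like cells (product 31.8% and 23.0%). *Dcc* and *Unc5d*, receptors that can act in one complex, were found together in 63.6% and 74.6% of newborn PN-like cells (product 63.1% and 74.6%) and in 11.6% and 12.6% of mature PN-like cells (product 12.2% and 13.002%). They were found together in 59.7% and 48.4% of IPC-like cells (product 53.7% and 44.2%). The share was 6.59% and 4.97% of RGC-like cells (product 6.81% and 4.34%). It was 8.33% and 10.7% of MGE interneuron-like cells (product 7.36% and 9.71%). For *Dcc* and *Unc5c* the share was 10.98% and 14.7% of MGE interneuron-like cells (product 13.7% and 16.3%) and 4.97% and 2.74% of mature PN-like cells (product 5.43% and 3.25%). For *Robo2* and *Unc5d* it was 54.6% and 40.5% of IPC-like cells (product 43.1% and 29.5%). It was 73.3% and 77.4% of newborn PN-like cells (product 69.7% and 75.2%) and 9.33% and 7.67% of mature PN-like cells (product 5.88% and 4.01%) for that pair. In RGC-like cells it was 9.58% and 3.27% (product 5.11% and 1.98%). In MGE interneuron-like cells it was 7.20% and 10.0% (product 10.3% and 10.3%).

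Further genes of the pathways were taken from a list of 33, made up of 10 ligands and extracellular partners, 5 other receptors and 18 intracellular partners, and 30 of them passed the filter on low counts. From RGC-like to IPC-like cells 12 were higher and 8 lower, which is 20 of 30 beside 39% of all genes, with a median log2 fold change of -0.0097 beside -0.0026 over all genes. Among them *Trim9*, a ubiquitin ligase that binds DCC, went from 9.62 CPM and 4.19 CPM to 83.1 CPM and 33.6 CPM. *Dscam*, a netrin receptor, went from 9.41 CPM and 5.98 CPM to 61.4 CPM and 64.7 CPM. The ligand *Ntn1* went from 15.4 CPM and 6.58 CPM to 1.70 CPM and 1.22 CPM. From IPC-like to newborn PN-like cells 17 were higher and 6 lower, which is 23 of 30 beside 38.8% of all genes, with a median of 0.52 beside 0.018. *Flrt2*, a ligand of UNC5 receptors, rose from 11.2 CPM and 9.08 CPM to 119 CPM and 135 CPM, and *Dscam* from 61.4 CPM and 64.7 CPM to 572 CPM and 665 CPM. *Dock1*, an activator of RAC1, fell from 82.3 CPM and 69.3 CPM to 5.76 CPM and 4.73 CPM.

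From newborn to mature PN-like cells 9 of the 30 were higher and 4 lower, 13 in all beside 21.1% of all genes, with a median of 0.27 beside 0.014. They included *Trim67*, a paralog of *Trim9*, with 26.4 CPM and 17.1 CPM in newborn and 78.5 CPM and 67.6 CPM in mature PN-like cells. They also included *Ablim1*, an actin-binding protein, with 30.1 CPM and 17.8 CPM in newborn and 123 CPM and 108 CPM in mature PN-like cells, and *Rgma*, a ligand of neogenin, with 8.01 CPM and 4.73 CPM against 26.3 CPM and 16.7 CPM. In MGE interneuron-like against mature PN-like cells 7 were higher and 10 lower, 17 of 30 beside 35.8% of all genes, and the median of -0.16 was that of all genes to 2 decimals. The paralogs *Dscam* and *Dscaml1* went opposite ways there. *Dscam* was 13.2 CPM and 55.9 CPM in MGE interneuron-like cells against 603 CPM and 635 CPM, and *Dscaml1* was 1113 CPM and 1118 CPM against 118 CPM and 118 CPM. *Ablim1* was lower, with 9.17 CPM and 6.87 CPM.

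Across 25 clusters, the likeness of these genes to 7675 others was described by Pearson's r of log2 levels, taken from counts summed over both replicates. The replicate with more UMIs in a cluster thus weighed more. Clusters share libraries and differ in depth, so r is a description. *Robo2* was most like *Plxna4* (r = 0.901), which encodes a semaphorin co-receptor, and *Unc5d* was most like *A930024E05Rik* (0.911) and *Cdh8* (0.887), which encodes a cadherin. *Dcc* was most like *Gdpd1* (0.936) and *Unc5a* like *Map9* (0.916). *Robo1* was most like *Taok3* (0.877), *Slit2* like *Grsf1* (0.892), *Unc5c* like *Reps2* (0.815), *Slit1* like the glutamate receptor subunit gene *Grin2b* (0.805) and *Slit3* like *Sv2b* (0.797). Among pairs of the 10 genes, *Dcc* and *Unc5a* were most alike (0.837), followed by *Robo2* and *Dcc* (0.741) and *Robo2* and *Unc5d* (0.734).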

How the data were processed

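Cells of 2 WT samples were profiled with a droplet-based 3' kit. The deposited files hold counts of UMIs per gene and barcode, which the authors made with Cell Ranger 7.0.0 against mm10, per the submitters' processing notes. Annotation release, intron setting and cell calling are not given in the sources used here. The libraries held 6163 and 8870 barcodes and 64182006 and 93295807 UMIs, and every barcode had at least 500 UMIs. A barcode was kept if it had 1500 to 60000 UMIs, fewer than 10% of them mitochondrial. Doublets were predicted from simulated cell pairs at 0.8% per 1000 barcodes, which removed 304 and 629. Cells were clustered with Scanpy 1.11.5 and leidenalg 0.10.2 (2000 variable genes, 30 components, 15 neighbours, resolution 1.0), without 43 genes that are the 10 described and 33 of their pathways. Clusters were named from fixed markers. Cells of 1 library are not replicates, so raw counts were summed per class and replicate and tested with edgeR 4.0.16 (TMM, filterByExpr, quasi-likelihood, Benjamini-Hochberg adjustment over all genes tested, adjusted p under 0.05) in R 4.3.3. Fold changes are on the log2 scale with a prior count of 2. The SE given for edgeR is the absolute log2 fold change divided by the square root of the F statistic of its test.

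The genes named were the 10 members, the pathway genes with the largest changes past the threshold, up to 3 in each comparison, and the genes most like the members. One planned comparison and 1 such gene are not reported here. The members and lists were chosen with earlier results of these data known. Same-numbered sums came from the same library, which is the source of the pairing, and their deviations from the class means correlated at 0.0196 to 0.285 between classes. The replicates differed beyond sampling noise. Nothing states that they came from separate embryos, so the spread may be technical. Of the 10 genes, 7 matched the RefSeq promoter table, and *Slit1*, *Dcc* and *Unc5d* did not. Alternatives were the replicate block, DESeq2 1.42.0, library sizes alone, no filter on low counts, other cell filters, doublets kept, resolution 2.0, thinning, each replicate left out and, chosen after seeing the data, single clusters left out and a background of both erythroid-like clusters.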

Additional observations from a re-analysis of the deposited data

How the results depend on the processing

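The number of the 10 genes past the threshold stayed within 1.5 times its value in every comparison and alternative run. The replicate block changed 6 calls, all given with the results, and no other call. It also raised the numbers that passed over all genes. From RGC-like to IPC-like cells 3135 higher and 3165 lower genes became 3708 and 3765. Newborn PN-like against IPC-like cells went from 3307 and 2966 to 3899 and 3582. Mature against newborn PN-like cells went from 1957 and 1454 to 2655 and 2156. In MGE interneuron-like against mature PN-like cells 2087 and 3706 became 2222 and 3939. Calls gained among the 10 genes, apart from values that changed sign, numbered 7 with no filter on low counts and 5 at resolution 2.0. They numbered 4 with a stricter cell filter, 3 with cells thinned and 2 with doublets kept. Calls lost numbered 2 at resolution 2.0, 2 with a stricter cell filter, 1 with cells thinned and 1 with doublets kept. No value that had passed changed sign, except *Slit3* from RGC-like to IPC-like cells, at 1.44 with a stricter cell filter. Among values that had not passed, with both replicates, the sign changed from RGC-like to IPC-like cells for *Robo1* with doublets kept (-0.34) and *Slit2* with a stricter filter (0.098). From IPC-like to newborn PN-like cells it changed for *Dcc* with library sizes alone (-0.014) and without cluster 12 (-0.18). From newborn to mature PN-like cells it changed for *Neo1* at resolution 2.0 (0.18) and without cluster 8 (0.19), and for *Unc5c* with doublets kept (-0.25). In MGE interneuron-like against mature PN-like cells it changed for *Unc5d* at resolution 2.0 (-1.11) and with a stricter filter (-0.76), for *Robo2* with cells thinned (0.022), library sizes alone (0.11), doublets kept (0.80, which passed) and without cluster 18 (0.14), and for *Slit2* with doublets kept (0.48), a stricter filter (0.14) and without cluster 5 (1.06). The causes were not tested. *Slit3* also lost its rise to mature PN-like cells with a stricter filter (1.21). Over all genes, with cells thinned to 3000 UMIs, the 3135 higher and 3165 lower genes from RGC-like to IPC-like cells became 1795 and 2288, and the 2087 and 3706 of MGE interneuron-like against mature PN-like cells became 1477 and 2288. Leaving out a replicate leaves no residual degrees of freedom, so those are values with no test. Among values that had not passed, the 2 replicates alone had opposite signs, in the order 1 and 3, for *Slit2* from IPC-like to newborn PN-like cells (0.51 and -0.80), *Neo1* from newborn to mature PN-like cells (-0.33 and 0.21) and, in MGE interneuron-like against mature PN-like cells, *Robo2* (-0.31 and 0.17), *Unc5d* (-0.080 and 0.39) and *Slit2* (0.0039 and -0.86). Pairs of gene and class above the background numbered 27 at 1500 UMIs and 37 without thinning, in place of 31, and 27 with both erythroid-like clusters as the background. None of these counts has a share over all genes beside it. With 2 replicates per class, the levels of *Unc5a*, at 1 to 9 UMIs in MGE interneuron-like cells, are limited by depth. A planned comparison with CGE interneuron-like cells was not run, since no such class formed in the main clustering. At resolution 2.0 one formed, with 228 and 24 cells, but replicate 3 was under the minimum of 50 cells for a sum.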
